A study of Mus musculus with 5 samples.

Results

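Imprinted genes that regulate growth before birth were examined in mouse ovarian cells between 2 and 6 wk of age. The genes were the 10 on a fixed list, H19, Mest, Dlk1, Meg3, Peg3, Cdkn1c, Plagl1, Grb10, Nnat and Ndn, and all 10 were found by symbol among the 31053 genes of each matrix. The study profiled whole ovaries of untreated C57BL6/J females by droplet single-cell RNA sequencing, with 1 library at each of 2, 3, 4, 5 and 6 wk, to follow the first wave of follicles as most of them lose the oocyte and are remodeled while their theca cells persist. Ovaries were dissociated with trypsin, and live cells were sorted before capture. The number of animals behind each library is not given in the sources used here, and no age had a second library, so the comparisons between ages had no replicate check and no p-value was computed.

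Most mammalian genes are read from both parental copies. An imprinted gene is read mainly from a single parental copy, because the copies were marked differently in the egg and the sperm, usually by DNA methylation. Many imprinted genes act on fetal growth, broadly with paternally expressed genes promoting it and maternally expressed genes restraining it, and many are switched off in most organs as postnatal growth slows. In the ovary, theca and stromal cells arise from fetal and perinatal mesenchyme and keep dividing in young animals. The counts do not separate the parental copies, so everything reported is the total of both.

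The list held 6 genes that are paternally expressed in most mouse tissues and 4 that are maternally expressed. Among the former, Mest encodes a protein of the alpha/beta hydrolase fold family, Dlk1 a transmembrane EGF-repeat protein of progenitor cells, Peg3 and Plagl1 zinc-finger proteins, Nnat a small membrane proteolipid, and Ndn a MAGE-family protein that restrains proliferation. Among the latter, H19 and Meg3 are long noncoding RNAs, Cdkn1c is an inhibitor of cyclin-dependent kinases, and Grb10 is an adaptor that dampens signaling by the insulin and IGF receptors.

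Dlk1 (chr12:109452823-109463336, plus strand) and Meg3 (chr12:109541001-109571726, plus strand) are neighbors in one imprinted domain, separated by 77664 bp in the GRCm38 annotation. H19 (chr7:142575529-142578143, minus strand) and Cdkn1c (chr7:143458339-143461050, minus strand) are 880195 bp apart. Peg3 (chr7:6703892-6730431, minus strand) and Ndn (chr7:62346569-62350262, plus strand) lie in other domains of the same chromosome. The remaining genes were Mest (chr6:30723547-30748465, plus strand), Nnat (chr2:157560078-157562522, plus strand), Plagl1 (chr10:13060504-13131694, plus strand) and Grb10 (chr11:11930508-12038683, minus strand). Nnat lies inside Blcap, and the end of Mest overlaps the end of Copg2, both on the opposite strand, and whether reads were counted by strand is not given in the sources used here.

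A window of 300 bases around an annotated start (250 before and 50 after) is shown for Mest, Dlk1, Meg3 and Peg3, on which most of the comparisons between ages turn, with CG pairs, the dinucleotide that carries most mammalian DNA methylation, in capitals. The sequences are RefSeq windows of GRCm38.p6, written 5′ to 3′ on the gene's strand. Windows were found for 8 of the 10 genes. Mest had 3 windows, one for each annotated start, and Meg3 had 2, and the one with the most CG pairs (for Mest, the first of a tie) is shown, so the Mest window lies inside the gene, at a start downstream of the outermost one.
Mest, chr6:30737800-30738099, plus strand: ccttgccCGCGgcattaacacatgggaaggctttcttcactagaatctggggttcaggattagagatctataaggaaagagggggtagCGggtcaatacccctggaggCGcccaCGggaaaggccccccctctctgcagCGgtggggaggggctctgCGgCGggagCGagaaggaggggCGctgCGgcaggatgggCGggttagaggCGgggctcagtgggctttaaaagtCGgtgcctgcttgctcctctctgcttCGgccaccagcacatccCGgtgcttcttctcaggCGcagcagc
Dlk1, chr12:109452573-109452872, plus strand: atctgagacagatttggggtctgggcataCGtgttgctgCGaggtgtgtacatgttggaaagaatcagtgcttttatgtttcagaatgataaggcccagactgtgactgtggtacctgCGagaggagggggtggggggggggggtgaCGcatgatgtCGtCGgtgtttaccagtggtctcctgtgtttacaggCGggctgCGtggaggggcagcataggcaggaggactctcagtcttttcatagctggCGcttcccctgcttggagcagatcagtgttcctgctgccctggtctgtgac
Meg3, chr12:109540746-109541045, plus strand: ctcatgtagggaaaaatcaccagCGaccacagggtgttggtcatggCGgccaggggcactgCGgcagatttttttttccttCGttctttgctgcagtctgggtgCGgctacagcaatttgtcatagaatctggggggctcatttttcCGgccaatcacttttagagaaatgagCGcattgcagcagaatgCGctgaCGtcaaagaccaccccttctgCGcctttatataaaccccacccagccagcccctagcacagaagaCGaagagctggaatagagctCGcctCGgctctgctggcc
Peg3, chr7:6730370-6730669, minus strand: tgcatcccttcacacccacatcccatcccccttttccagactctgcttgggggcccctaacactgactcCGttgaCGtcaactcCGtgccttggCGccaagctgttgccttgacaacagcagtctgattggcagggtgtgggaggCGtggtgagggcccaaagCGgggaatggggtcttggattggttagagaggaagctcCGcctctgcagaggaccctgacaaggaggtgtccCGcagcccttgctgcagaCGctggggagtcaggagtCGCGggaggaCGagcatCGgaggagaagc
The Mest window shown held 17 CG pairs, and 31.4% of the 32841 RefSeq windows of the same length held as many. The other Mest windows held 17 and 8 (48.7% of windows held as many as 8). The Meg3 and Peg3 windows shown held 13 each (37.9%), the other Meg3 window held 1 (94.6%), and the Dlk1 window held 9 (45.8%). Because the windows of Mest and Meg3 were picked for their CG pairs, their place among all windows is not a result. The median window held 7. Methylation was not measured, so these counts describe the sequence only.

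Mest, H19 and Meg3 also host microRNAs on their own strand. The mature 5′ arms are shown because they come from the same primary transcripts, with the seed (bases 2 to 8) in capitals.
mmu-miR-335-5p, chr6:30741314-30741336, plus strand: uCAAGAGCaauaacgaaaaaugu
mmu-miR-675-5p, chr7:142577112-142577133, minus strand: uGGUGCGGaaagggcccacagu
mmu-miR-770-5p, chr12:109563710-109563731, plus strand: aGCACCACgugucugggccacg
The first lies in Mest, the second in H19 and the last in Meg3, and the 3 seeds differ. The assay counts polyadenylated RNA and did not measure the microRNAs themselves.

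The 5 matrices held 48163 cells, with 7779 to 11077 per library and 93438618 to 144609431 UMIs (unique molecular identifiers, each standing for 1 captured RNA molecule) per library. The tables of 2, 3 and 4 wk carry a header of Cell Ranger 3.1.0 and those of 5 and 6 wk one of 6.0.1, so a step between 4 and 5 wk cannot be told apart from the software. Gm42418 and AY036118, which overlap a ribosomal RNA locus, and Lars2 together took 0.0895, 0.144, 0.121, 0.798 and 0.553% of UMIs at 2, 3, 4, 5 and 6 wk. Between 18 and 35 cell barcodes were shared by any pair of libraries.

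Cells were grouped by clustering without the 10 genes after the 5 libraries were aligned, and a group was called "-like" from its markers. Clustering in 2 rounds gave 20 cell groups. Markers of the second round came in part from lists of the study, which were chosen on these libraries. Hhip, Ptch1, Cyp17a1, Col14a1, Mki67 and Ptprc were among the markers used for naming. Their levels below therefore describe the groups and do not test the names. Granulosa-like cells (18432 cells, 38.3%) and stromal-like cells (13896 cells, 28.9%) were the largest classes of the first. A second round on mesenchymal cells separated early theca-like cells (1815 cells), which carried the hedgehog targets Hhip and Ptch1 at 146 and 418 CPM (UMIs of a gene per 1000000 UMIs of the cells summed) with Cyp17a1 at 1.27 CPM, and also the granulosa gene Foxl2 at 161 CPM (191 in granulosa-like cells), from theca-like cells (1534 cells), whose Cyp17a1, the enzyme of androgen synthesis, was at 1713 CPM. The same round gave a Col14a1 group (732 cells, Col14a1 at 300.4 CPM), a mitotic mesenchymal-like group (1116 cells, Mki67 at 529 CPM) and groups named by Cd24a, Hoxd9, Cxcl12, Col11a1 and Tagln. The stromal-like class of the first round and the groups of the second share cells. Granulosa-like cells were split into primordial-, primary-, mitotic, antral- and remodeling-like cells. No granulosa-like cluster was named secondary, and the stages may differ from those of the study. The remodeling-like cluster led by Cda and Vpreb3 had a mean standardized marker level of 1.05 for remodeling and 0.46 for antral markers. At the coarser resolution of 0.6, the cluster with Cda and Vpreb3 among its leading genes had 0.91 and 0.94, so this name is uncertain. Hematopoietic-like cells (496 cells, Ptprc at 470.1 CPM) carried the stromal gene Dcn at 210.3 CPM and Cyp11a1 at 59.8 CPM. Their levels are given for comparison. For some genes other groups lay below them, so they are not a floor set by free RNA.

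Each level is given as CPM with all cells of a group in a library summed. Intervals in parentheses are exact 95% intervals, Poisson for a level, binomial for a share of cells and conditional binomial for a ratio of 2 levels. Those of levels and ratios treat UMIs as independent. They cover counting error only, not the spread between cells, animals or captures. A count of 0 among the 50 to 181 hematopoietic-like cells of a library allows a share of up to 2.02 to 7.11%. A gene counted as past the fold where the ratio of 2 sums was at least 2 or at most 0.5 and the sums held at least 20 UMIs together. Levels are compared within a gene, not between genes.

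**Figure D1:**
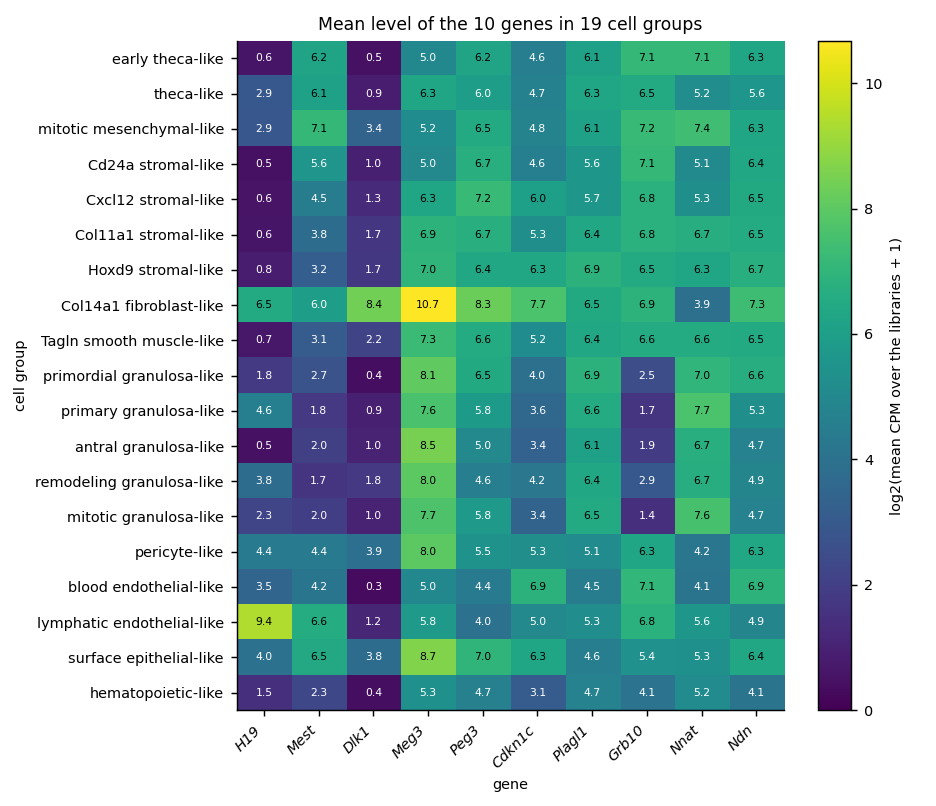
Mean level of each of the 10 genes over the libraries in each cell group, as log2 of CPM plus 1, with genes in columns, groups in rows and colors from dark purple (low) to yellow (high). The Col14a1 group held the highest mean of Dlk1 (336 ± 424 CPM, SD over the 5 ages) and Meg3 (1634 ± 907 CPM), and Grb10 was low in every granulosa-like group.

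The 10 genes divided the ovary along different lines. Grb10 and Mest were low in granulosa-like cells. Grb10 was high in mesenchymal groups and also in blood (131.8 ± 23.6 CPM) and lymphatic (111.8 ± 26.9 CPM) endothelial-like cells. Mest was high in some mesenchymal groups but low in the Tagln (7.64 ± 2.80 CPM), Hoxd9 (8.09 ± 5.19 CPM) and Col11a1 (12.5 ± 3.07 CPM) groups. It was also found in surface epithelial-like cells (86.5 ± 45.4 CPM) and lymphatic endothelial-like cells (97.4 ± 119.6 CPM). Nnat was highest in primary granulosa-like cells, with a mean of 203 ± 39.1 CPM over the 5 ages, and lowest in the Col14a1 group, with 14.3 ± 6.46 CPM. Among groups measured at all 5 ages, the Col14a1 group held the highest mean of Dlk1, Meg3, Peg3, Cdkn1c and Ndn. The share of all genes with their highest mean in that group is not given here, so this describes each gene alone. H19 was highest in lymphatic endothelial-like cells, with a mean of 678 ± 366 CPM over the 4 ages with enough cells.

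Mest was higher at 6 wk than at 2 wk in early theca-like cells, in theca-like cells and in dividing mesenchymal cells. In early theca-like cells its level was 26.3, 42.3, 109, 79.4 and 110.2 CPM at 2, 3, 4, 5 and 6 wk. The ratio of 6 to 2 wk was 4.18 (3.55 to 4.96), and that of 4 to 2 wk, within one Cell Ranger version, was 4.12. The 3 oldest libraries were all above the 2 youngest. The share of these cells with a Mest UMI was 22.6%, 27.0%, 34.5%, 39.3% and 34.0%, against 1.96%, 0%, 4.76%, 1.66% and 0% of hematopoietic-like cells, whose median depth was 4989 to 8596 UMIs per cell against 9856 to 16893. With each cell thinned to 2000 UMIs the early theca-like shares were 4.93%, 6.46%, 14.9%, 9.50% and 11.9%.

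The highest ratio of 6 to 2 wk over the groups was in dividing mesenchymal cells. Mitotic mesenchymal-like Mest stood at 32.6, 110.3, 219, 119.5 and 196 CPM in age order, a ratio of 6 to 2 wk of 6.00 (5.22 to 6.92). The libraries of 4 and 6 wk were the highest pair both there and in early theca-like cells, and 2 wk was the lowest. In the Cd24a group Mest was 33.8, 33.2, 62.3, 50.4 and 54.1 CPM, a ratio of 1.60 (1.32 to 1.96), short of 2-fold. The ratio of 6 to 5 wk, again within one version, was 1.64 in mitotic mesenchymal-like and 1.39 in early theca-like cells.

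Theca-like cells were 2 clusters with different Mest, and the mix of the 2 changed with age. The first, led by Cyp11a1 and Cyp17a1, held 61, 129, 176, 485 and 57 cells in age order and had Mest at 17.4, 23.3, 21.7, 5.94 and 34.3 CPM. The second, led by Cpa1 and Aldh1a7, held 109, 163, 129, 124 and 101 cells and had Mest at 37.1, 84.6, 154, 94.2 and 228 CPM, a ratio of 6 to 2 wk of 6.16 (4.73 to 8.12). Pooled, the theca-like level was 29.5, 56.7, 79.7, 23.1 and 154 CPM, lowest at 5 wk, the library in which the first cluster was most numerous. The steroidogenic cluster was below the other at every age.

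**Figure D2:**
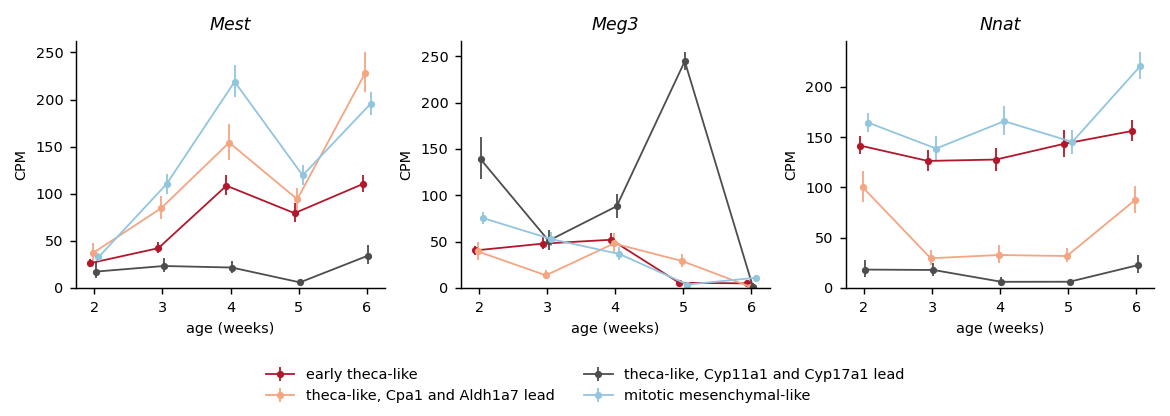
Levels of Mest, Meg3 and Nnat in CPM against age in weeks for early theca-like cells, the 2 theca-like clusters and mitotic mesenchymal-like cells, with exact 95% Poisson bars for counting error. Mest of the Cyp11a1 and Cyp17a1 cluster lay below that of the other 3 groups at each age, while its Meg3 reached 245 CPM at 5 wk.

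Other mesenchymal cells went the opposite way. In the Col14a1 group Mest was 128, 54.7, 52.0, 43.8 and 32.4 CPM, a ratio of 6 to 2 wk of 0.253 (0.137 to 0.431), and in the Hoxd9 group 16.3, 9.85, 5.83, 3.21 and 5.22 CPM, a ratio of 0.320 (0.206 to 0.484). The whole stromal-like class had Mest at 30.2, 44.1, 83.9, 64.4 and 65.9 CPM, a ratio of 2.18 (2.04 to 2.33), which no longer passed 2-fold when every cluster of the class was given equal weight. Granulosa-like cells had 4.97, 2.34, 2.48, 2.21 and 2.97 CPM, within the span of the 4.92, 0, 6.79, 8.03 and 0 CPM of hematopoietic-like cells. Among granulosa-like groups, primordial-like cells had 13.8, 2.97, 7.32, 2.49 and 1.86 CPM, the last from 2 UMIs, a ratio of 6 to 2 wk of 0.135 (0.0159 to 0.510). Over all cells Mest was 18.99, 17.5, 22.0, 19.2 and 24.1 CPM, a smaller relative span than in any of the groups above. Of the 17 groups with at least 50 cells at 2 and 6 wk, which leaves out the Col14a1 group, 16 had enough Mest UMIs. In 4 it was at least 2-fold higher at 6 wk (early theca-like, theca-like, mitotic mesenchymal-like and antral-like cells, the last at 1.79 and 5.06 CPM), and in 5 at least 2-fold lower (the Hoxd9 group, blood endothelial-like cells and primordial-like, primary-like and mitotic granulosa-like cells). The antral-like, primary-like and mitotic granulosa-like levels lay within the span of 0 to 8.03 CPM of hematopoietic-like cells at every age. Of the 7960 genes with enough UMIs in at least as many groups, 3.42% were lower in 5 or more and 3.38% higher in 4 or more.

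Dlk1 was concentrated in the Col14a1 group at 2 wk and was lower there in all 4 later libraries. Its level there was 1058, 374, 89.2, 47.9 and 111 CPM, a ratio of 6 to 2 wk of 0.105 (0.0773 to 0.140). The libraries of 2 and 3 wk were both above those of 4, 5 and 6 wk, and the number of cells of the group was 218, 219, 128, 125 and 42 in age order. The share of those cells with a Dlk1 UMI was 72.0%, 58.0%, 26.6%, 20% and 21.4%, against 1.96%, 0%, 0%, 0% and 0% of hematopoietic-like cells, with median depths of 6250.0 to 11485 and 4989 to 8596 UMIs per cell. Dlk1 was among the leading genes of this cluster although it took no part in the clustering, so its height there is a description. The ratio of 6 to 5 wk was 2.32, against the direction of the whole span, on 48 and 71 UMIs.

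In other mesenchymal and mural groups Dlk1 was near 0 at 6 wk. Mitotic mesenchymal-like cells had 46.7, 0.768, 0.982, 0 and 0 CPM. If UMIs were independent, this was at least 76.3-fold lower at 6 wk than at 2 wk, taking 3 UMIs as the limit that a count of 0 allows. That limit makes no allowance for UMIs that lie in few cells. The 365 UMIs at 2 wk came from 21 of 370 cells, 5.68% (3.55 to 8.55%), at a median depth of 19712 UMIs per cell, against 1.96% of hematopoietic-like cells at 8596, so most cells of the group had none. Smooth muscle-like cells had 15.7, 1.02, 0.834, 0 and 0 CPM, at least 61.5-fold lower on the same terms, and 40 of 708 carried a UMI at 2 wk. Pericyte-like cells had 57.4, 9.17, 0, 0.586 and 2.40 CPM, a ratio of 0.0418 (0.0148 to 0.0954), from 12 of 138 cells at 2 wk and 5 of 249 at 6 wk. The stromal-like class as a whole stood at 73.9, 20.3, 4.91, 3.26 and 1.44 CPM, a ratio of 0.0194 (0.0146 to 0.0254), and 85.8% of all Dlk1 UMIs at 2 wk but 22.1% at 6 wk were in it. The granulosa-like share of Dlk1 UMIs was 3.49% at 2 wk and 65.6% at 6 wk, at a granulosa-like level of 2.50, 1.32, 0.8502, 1.78 and 2.13 CPM that stayed low throughout. Of 11 groups with enough UMIs, 7 were at least 2-fold lower and 0 higher, where 2.56% of genes were lower in 7 or more. Early theca-like cells had 1.40, 0.624, 0, 0 and 0 CPM, so Dlk1 was at 0 at 6 wk in the cells in which Mest was high.

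Meg3, the noncoding neighbor of Dlk1, was lower at 6 wk than at 2 wk in mesenchymal groups and not in granulosa-like cells as a class. In the Col14a1 group it was 2386, 2604, 1596, 1221 and 364 CPM, a ratio of 6 to 2 wk of 0.152 (0.129 to 0.179). The stromal-like class had 250.0, 252, 149, 103 and 20.9 CPM, a ratio of 0.0836 (0.0777 to 0.0899), and smooth muscle-like cells 323, 249, 140.3, 35.2 and 21.1 CPM, a ratio of 0.0653 (0.0571 to 0.0744). Both series were in descending order from 3 wk on. The ratio within one Cell Ranger version was 0.595 for 4 to 2 wk and 0.202 for 6 to 5 wk in stromal-like cells, below 1 in each.

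Granulosa-like Meg3 was 195, 250.0, 153, 206 and 216 CPM, with a ratio of 6 to 2 wk of 1.11 (1.08 to 1.14). Within the class the stages differed. Primordial-like cells had 86.9, 200.5, 448, 378 and 211 CPM, a ratio of 2.43 (2.05 to 2.89), with all 4 later libraries above 2 wk. Antral-like cells had 701, 347, 163, 282 and 298 CPM, a ratio of 0.424 (0.402 to 0.448), and remodeling-like cells 473, 344, 93.2, 172 and 180.0 CPM, a ratio of 0.380 (0.359 to 0.403), with 2 wk the highest of the 5 in each. Different clusters held most of the remodeling-like cells at different ages. The cluster led by Cda and Vpreb3 held 176, 322, 651, 228 and 336 of the 251, 443, 1992, 1002 and 1240 cells in age order, the S100a6-led cluster 74, 106, 770, 538 and 603, and the Gm15866-led cluster 1, 15, 571, 236 and 301. Within the Cda and Vpreb3 cluster Meg3 was 493, 307, 85.03, 133 and 124 CPM, a ratio of 6 to 2 wk of 0.252 (0.230 to 0.275), and within the S100a6-led cluster 402, 499.7, 94.2, 193 and 239.6 CPM, a ratio of 0.596 (0.528 to 0.674), short of 2-fold and highest at 3 wk. The granulosa-like share of all Meg3 UMIs was 35.0% at 2 wk and 83.3% at 6 wk. Hematopoietic-like cells had 34.5, 80.8, 33.9, 21.2 and 27.7 CPM.

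In theca-like cells Meg3 was highest in the 5 wk library of 1 cluster. The steroidogenic theca-like cluster had 139, 51.0, 88.2, 245 and 1.56 CPM, with 32.8%, 20.2%, 22.7%, 59.8% and 3.51% of its cells (median depth 11750.0 to 22908 UMIs) carrying a UMI, against 15.7%, 10%, 15.5%, 7.18% and 3.85% of hematopoietic-like cells. The 6 wk share was no higher than that of hematopoietic-like cells. The other theca-like cluster had 39.4, 13.6, 48.0, 29.1 and 1.46 CPM. The 5 wk library was high in the first and not in the second, and 6 wk was the lowest in both. Early theca-like cells had 40.5, 47.9, 52.0, 5.54 and 5.00 CPM, with a drop between 4 and 5 wk, the ages at which the Cell Ranger version also changed. The pooled theca-like ratio of 6 to 2 wk was 0.0192 (0.00618 to 0.0456), from 5 UMIs at 6 wk. Over the 17 groups Meg3 was at least 2-fold lower at 6 wk in 12 and higher in 1, where 0.223% of genes were lower in 12 or more. Dlk1, 77664 bp away, was at 0.809 CPM in theca-like cells at 5 wk.

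H19 was found mainly in lymphatic endothelial-like cells, in the Col14a1 group and in part of the granulosa lineage. Lymphatic endothelial-like cells had 1053, 599, 856, 205 and 136 CPM from 47, 36, 52, 81 and 15 cells, and 70.2%, 44.4%, 48.1%, 42.0% and 40% of them carried a UMI, against 0%, 2%, 1.19%, 1.10% and 0.769% of hematopoietic-like cells, with median depths of 5422 to 9398 and 4989 to 8596 UMIs per cell. The Col14a1 group had 146, 182, 54.8, 29.7 and 46.3 CPM, a ratio of 6 to 2 wk of 0.317 (0.191 to 0.496). Blood endothelial-like cells had 50.5, 0, 0, 0.786 and 0 CPM, with 44 UMIs at 2 wk, 4 at 5 wk and none in the other libraries, at least 28.2-fold lower at 6 wk. The mean share of cells with a UMI over the 5 libraries was 1.59%. That mean includes the libraries with none, so the share at 2 wk, where most of these UMIs lay, was higher. The limit treats UMIs as independent and makes no allowance for UMIs that lie in the same cell.

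Granulosa-like cells as a whole had 7.07, 10.6, 10.6, 14.02 and 5.74 CPM of H19, and stages differed. Primary-like cells had 10.0, 21.4, 45.6, 20.7 and 18.3 CPM, a ratio of 6 to 2 wk of 1.82 (1.53 to 2.17), with 4 wk the highest. The highest of the 4 primary-like clusters, led by H19 itself and Hamp2, had 28.0, 56.0, 161, 74.5 and 78.2 CPM from 179, 275, 307, 112 and 179 of the 295, 421, 413, 151 and 241 primary-like UMIs, a ratio of 2.79 (2.26 to 3.45). The share of cells of that cluster with a UMI was 19.1%, 27.7%, 42.7%, 40% and 33.9%, at a median depth of 7791 to 15096 UMIs per cell. The other 3 primary-like clusters lay between 3.02 and 17.5 CPM over the 5 ages. The S100a6-led cluster of remodeling-like cells had 39.7, 38.9, 24.5, 53.1 and 12.5 CPM, whereas antral-like cells had 0.716, 0, 0.830, 0.312 and 0.151 CPM. Of all H19 UMIs, 22.3% were in granulosa-like cells at 2 wk and 81.9% at 6 wk. Of the 17 groups, 8 had enough H19 UMIs, and 5 of those were at least 2-fold lower at 6 wk and 0 higher, where 5.48% of genes were lower in 5 or more. Over all cells H19 went from 13.9 CPM at 2 wk to 3.64 CPM at 6 wk.

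Peg3 was lower at 6 wk than at 2 wk in every group compared. Over all cells it was 133, 83.9, 48.2, 40.6 and 30.5 CPM, a ratio of 6 to 2 wk of 0.230 (0.222 to 0.238), with each library below the one before. Granulosa-like cells had 113, 50.1, 26.7, 21.6 and 18.5 CPM, a ratio of 0.164 (0.155 to 0.174). Stromal-like cells had 162, 130.02, 104, 85.7 and 52.7 CPM, a ratio of 0.326 (0.310 to 0.342). Both classes descended in age order.

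The Col14a1 group, the highest, had Peg3 at 569.8, 378, 347, 129 and 104 CPM, and early theca-like cells at 107, 96.6, 66.5, 68.3 and 36.7 CPM. The ratio of 6 to 2 wk ran from 0.0692 in blood endothelial-like cells to 0.466 in the Cxcl12 group, and it was 0.5 or less in 17 of the 17 groups with at least 50 cells at both ages. Of the 6739 genes with enough UMIs in all 17, 3, or 0.0445%, were past the fold downward in all of them, and the other two were AC160336.1 and Aard. The library of 4 wk was below that of 2 wk in 17 groups, past 2-fold in 6, where 3.77% of genes were lower in 6 or more. That of 6 wk was below 5 wk in 15, past 2-fold in 1, where 14.4% of genes were lower in 1 or more.

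Cdkn1c, the cell cycle inhibitor, was highest in the Col14a1 group at 247, 251, 142, 200.4 and 174 CPM, with 2 and 3 wk the highest and 4 wk the lowest. Blood endothelial-like cells had 208, 155, 65.5, 84.3 and 70.4 CPM, a ratio of 6 to 2 wk of 0.339 (0.266 to 0.429). It was lower at 6 wk in each theca group, with 44.9, 21.2, 18.7, 14.2 and 15.9 CPM in early theca-like cells, a ratio of 0.355 (0.277 to 0.452), and 42.6, 18.6, 29.7, 24.4 and 8.71 CPM in theca-like cells. Mitotic mesenchymal-like cells had 61.4, 23.8, 20.9, 10.1 and 14.1 CPM, a ratio of 0.229 (0.175 to 0.295). Mest had its highest ratio of 6 to 2 wk over the 17 groups in the same cells. The Cxcl12 group was higher at 6 wk, with 49.3, 64.1, 54.8, 82.1 and 74.0 CPM, a ratio of 1.501 (1.24 to 1.83), short of 2-fold. Of 16 groups with enough UMIs, 7 were at least 2-fold lower and 0 higher, where 1.81% of genes were lower in 7 or more.

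Plagl1, a transcription factor that arrests the cell cycle when overexpressed, was present in both lineages. Primordial-like cells had 109.7, 118, 111, 143 and 102 CPM and primary-like cells 87.6, 100.05, 103, 89.7 and 87.6 CPM, a spread over the 5 ages of 117 ± 15.9 and 93.6 ± 7.45 CPM (mean ± SD). In antral-like cells it was 32.6, 69.1, 122, 59.7 and 52.4 CPM, with 4 wk the highest, and in remodeling-like cells 52.0, 58.2, 125, 98.9 and 83.9 CPM, again with 4 wk the highest. The clusters that made up both stages changed in share with age, and 4 wk was also the highest within each of them, with 55.9, 63.0, 171, 139.7 and 113 CPM in the remodeling-like cluster led by Cda and Vpreb3, 38.4, 34.4, 98.5, 91.7 and 74.7 CPM in the S100a6-led one and 106 CPM at 4 wk in the Gm15866-led one, which held 1 and 15 cells at 2 and 3 wk. The stromal-like class had 85.8, 88.6, 91.4, 57.2 and 45.7 CPM, with 5 and 6 wk below the other 3, a ratio of 6 to 2 wk of 0.533 (0.503 to 0.564). It was at least 2-fold lower in 5 of the 17 groups, where 2.85% of genes were lower in 5 or more.

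Grb10 varied little with age in early theca-like and mitotic mesenchymal-like cells, in which its mean was highest. Early theca-like cells had 147, 132, 139, 143 and 127 CPM and mitotic mesenchymal-like cells 158, 143, 154, 149 and 148 CPM, means of 138 ± 8.07 and 150.5 ± 5.86 CPM. Groups nearly as high varied more. The Cd24a group ran from 159 CPM at 2 wk to 123 CPM at 6 wk, and blood endothelial-like cells from 169 CPM at 2 wk to 110 CPM at 5 wk. Its ratio of 6 to 2 wk was below 1 in 17 of 17 groups, yet past 2-fold in 2, where 9.02% of genes were past it in 2 or more. Granulosa-like cells had 4.89, 3.85, 6.14, 3.72 and 3.42 CPM, a small part of the mesenchymal level at every age.

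Nnat was shared by granulosa-like cells, early theca-like cells and dividing mesenchyme, and was low in steroidogenic cells. Primary-like cells had 171, 263, 194, 168 and 217 CPM, early theca-like cells 142, 126, 128, 143 and 156 CPM and mitotic mesenchymal-like cells 165, 139, 166, 145 and 221 CPM. The steroidogenic theca-like cluster had 18.3, 17.9, 6.13, 6.21 and 22.6 CPM and the other theca-like cluster 100.3, 29.6, 32.8, 31.8 and 87.4 CPM. Remodeling-like cells had 130.2, 209, 43.2, 52.5 and 62.5 CPM, with 4, 5 and 6 wk below 2 and 3 wk. The cluster led by Cda and Vpreb3, which held most of these cells at 2 and 3 wk only, had 131, 233, 44.1, 70.9 and 66.1 CPM, and the S100a6-led cluster 129.6, 125, 34.8, 43.8 and 58.96 CPM, so the 3 later libraries were below the 2 earlier ones within each. Nnat was at least 2-fold lower at 6 wk in 6 of the 17 groups, where 2.08% of genes were lower in 6 or more.

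Ndn was highest in the Col14a1 group and blood endothelial-like cells among groups measured at all 5 ages. The Col14a1 group had 198, 188, 159.8, 114 and 151 CPM, and blood endothelial-like cells 125, 99.2, 103, 114 and 149 CPM, with a ratio of 6 to 2 wk of 1.19 (0.947 to 1.51). Granulosa-like cells had 51.8, 38.5, 28.7, 22.4 and 20.9 CPM, in descending order with age, a ratio of 0.403 (0.379 to 0.429). Peg3 descended in the same cells. The make-up of the class changed, with primary-like cells 1684 of 3092 at 2 wk and 774 of 3901 at 6 wk. From 2 to 6 wk Ndn went from 47.4 to 29.2 CPM in primary-like and from 127.7 to 68.9 CPM in primordial-like cells, short of 2-fold. It went from 44.9 to 15.1 CPM in mitotic and from 44.4 to 18.3 CPM in remodeling-like cells, past 2-fold. Ndn was at least 2-fold lower in 4 of the 17 groups, where 3.89% of genes were lower in 4 or more.

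**Figure D3:**
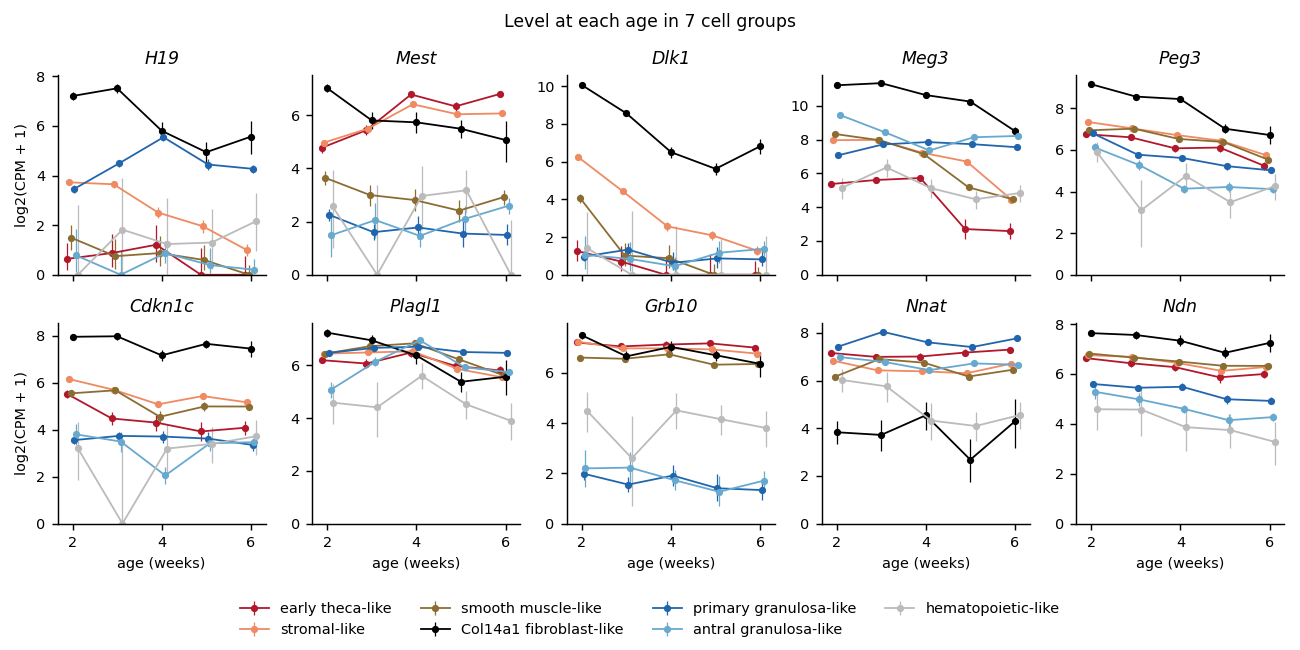
Level of each of the 10 genes, as log2 of CPM plus 1, against age in weeks in 7 cell groups, one panel a gene, with exact 95% Poisson bars for counting error. Every Peg3 line is lower at 6 wk than at 2 wk, Grb10 of early theca-like cells stays between 127 and 147 CPM, and the Mest lines cross.

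The members past 2-fold were counted for each listed comparison, beside the share of all genes past the fold. The list was chosen with earlier results of these data known. Between 2 and 6 wk in early theca-like cells, 3 of the 8 members with enough UMIs were lower (Meg3, Peg3 and Cdkn1c) against 5.76% of all genes, and 1 was higher (Mest) against 4.41%. The median ratio of the 8 was 0.6995 and of all genes 1.01. Within one Cell Ranger version, 1 was lower (against 7.17% of all genes) and 1 higher (3.95%) at 4 wk than at 2 wk. At 6 wk against 5 wk, a pair chosen after seeing the data, 0 were lower (2.61%) and 0 higher (3.46%). In stromal-like cells 5 of 10 were lower (H19, Dlk1, Meg3, Peg3 and Cdkn1c) against 8.36% of all genes, and 1 was higher (Mest) against 4.96%. The median ratio was 0.514 for the 10 and 0.9898 for all genes.

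In granulosa-like cells 2 of 10 were lower at 6 wk (Peg3 and Ndn) against 7.97% of all genes and 0 were higher against 8.28%, with medians of 0.804 and 1.01. In smooth muscle-like cells 3 of 9 were lower (Dlk1, Meg3 and Peg3) against 8.71% and 0 were higher against 3.34%, with medians of 0.573 and 0.942. Fewer cells of a kind within a class and less RNA of a gene per cell cannot be told apart in such class sums alone. For Dlk1, the Col14a1 group had both fewer cells at 6 wk (42) than at 2 wk (218) and a lower level. How much each adds to the class ratio was not tested. Theca-like and antral-like cells were compared at 5 and 2 wk. In theca-like cells 6 of 9 were lower (H19, Peg3, Plagl1, Grb10, Nnat and Ndn) against 10.8% of all genes, and 1 was higher (Meg3) against 10.9%. The medians were 0.362 and 0.944. The steroidogenic cluster held 61 of the 170 theca-like cells at 2 wk and 485 of the 609 at 5 wk. These pooled ratios therefore mix a change in the make-up of the class with changes within its clusters. In antral-like cells 3 of 7 were lower (Meg3, Peg3 and Ndn) against 5.16% and 0 were higher against 6.13%, with medians of 0.750 and 0.988. All of these comparisons share the 2 wk library.

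**Figure D4:**
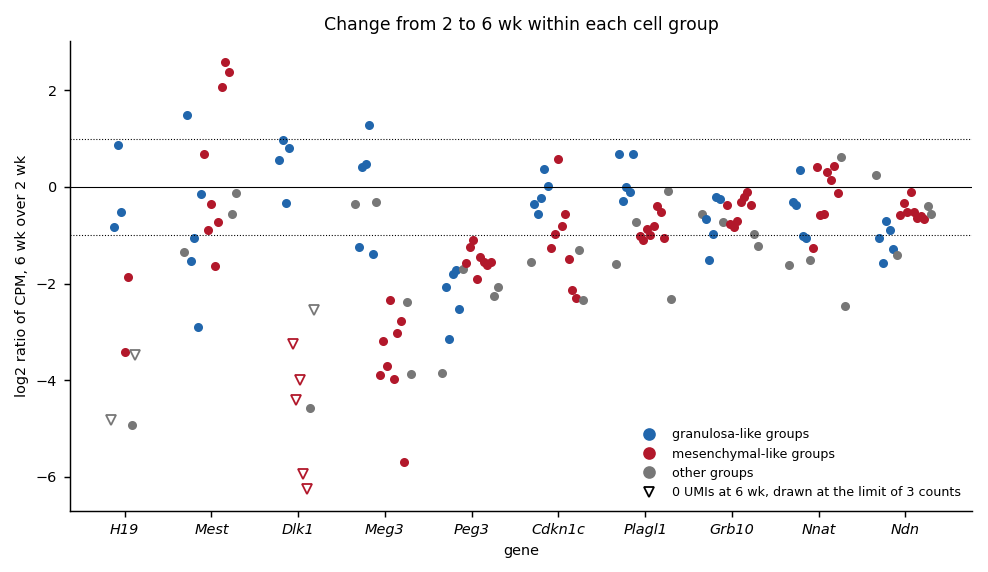
Ratio of the level at 6 wk to that at 2 wk, on a log2 scale, for each gene across the cell groups, with dotted lines at 2-fold and open triangles for groups with 0 UMIs at 6 wk, drawn at the limit of 3 counts. All 17 Peg3 points lie at or below the lower dotted line, while Mest points lie on both sides.

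Groups were also compared within each library, where the age is the same. Over all 5 libraries, 4 of the 10 genes were at least 2-fold higher in mesenchymal-like than in granulosa-like cells in each, against 11.1% of all genes, and 0 were lower in each, against 7.59%. The median of the ratios was 2.63 for the 10 and 0.8902 for all genes. Grb10 had ratios of 28.8, 30.1, 18.7, 25.1 and 29.5 in age order and Mest 5.52, 16.0, 26.9, 17.4 and 18.98. Cdkn1c had 5.35, 4.17, 3.37, 2.75 and 2.45, in descending order, and Ndn 2.04, 2.52, 2.83, 2.54 and 3.59. Dlk1 had 25.0, 11.7, 4.24, 1.09 and 0.483 and Meg3 1.31, 0.927, 0.910, 0.604 and 0.0948, both in descending order. The class with the higher level of each was therefore not the same at 2 and 6 wk. For Dlk1 both classes were low at 6 wk, with 1.03 CPM in mesenchymal-like cells and at most 2.50 CPM in granulosa-like cells at any age. Within the mesenchymal-like class, the Col14a1 group stayed above granulosa-like cells in both genes at 6 wk.

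Early theca-like cells were compared with theca-like cells, the stage at which steroidogenic genes are on. The theca-like class pooled 2 clusters, and the steroidogenic one made up 61 of 170 cells at 2 wk and 485 of 609 at 5 wk. The ratios therefore also reflect the mix of the 2 clusters. Nnat was the 1 of 8 genes at least 2-fold higher in early theca-like cells in each library, against 2.77% of all genes, with ratios of 2.07, 5.21, 7.18, 12.8 and 2.50. None of the 8 was at least 2-fold lower in each, against 2.12%. The median ratio of the 8 was 1.06 and of all genes 0.937. At 2 and 6 wk Nnat of early theca-like cells was less than 2-fold above that of the theca-like cluster led by Cpa1 and Aldh1a7. The Nnat call was lost when cells were held to at least 1000 detected genes and a mitochondrial share below 10%. Mest had ratios of 0.895, 0.746, 1.36, 3.44 and 0.717 and Meg3 0.519, 1.56, 0.737, 0.0273 and 3.33, on both sides of 1. Remodeling-like cells were compared with antral-like cells in the same way. The former include the cluster led by Cda and Vpreb3, whose place between the stages is uncertain. H19 was the 1 of 8 genes at least 2-fold higher in remodeling-like cells in each library, against 0.625% of all genes, and none was lower, against 0.566%. The median ratio was 1.38 for the 8 and 0.989 for all genes. The H19 ratios were 12.6, 12.7, 93.2 and 41.8 at 2, 4, 5 and 6 wk, with 0 UMIs in antral-like cells at 3 wk, and the call was lost when at least 100 UMIs were asked for. The H19 of remodeling-like cells lay mostly in the S100a6-led cluster, while the cluster led by Cda and Vpreb3 had 0.717, 0.745, 1.52, 0.734 and 0.491 CPM.

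A further 20 imprinted genes were listed for context, and 19 were found. In stromal-like cells 15 of them had enough UMIs at 2 and 6 wk, of which 6 were at least 2-fold lower and 3 at least 2-fold higher, against 8.36% and 4.96% of all genes. Usp29, which starts 146 bp from Peg3, went from 1.18 to 0.0532 CPM, the latter from 2 UMIs, a ratio of 0.0449 (0.00530 to 0.170). Zim1, 7441 bp from Peg3, went from 3.69 to 0.479 CPM. Mirg, 158037 bp from Meg3 in the same domain, went from 1.86 to 0.239 CPM, and Dio3, further along that domain, from 7.66 up to 18.3 CPM. Slc38a4, an amino acid transporter, went from 19.6 to 8.40 CPM and Peg10 from 27.7 to 13.3 CPM. Asb4 and Nap1l5 were higher at 6 wk, at 23.1 and 18.7 CPM against 9.12 and 3.90 CPM. Igf2, the fetal growth factor gene 72622 bp from H19, had 14 UMIs in stromal-like cells at 2 wk and 1 at 6 wk. These were below the minimum of 20 UMIs, so Igf2 is not among the 6 lower genes. Not all of those 6 are named here.

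Likeness of pattern was measured by Pearson's r of log2 of CPM plus 1 over 90 points, each a group in a library, among 13298 genes. The points share libraries and cells, so the values are a description. Grb10 was most like Nhsl2 (0.96), Igfbp7 (0.95) and Lamb1 (0.94), and Ndn most like Sparc (0.85), Prnp (0.82) and Emp2 (0.82). Mest was most like Wfdc1 (0.80), Pcbp4 (0.79) and Pcolce (0.78). Meg3 was most like B830012L14Rik (0.81), Mirg (0.79) and Fam19a5 (0.79), and Dlk1 most like Cacna1g (0.73), Col6a5 (0.73) and Zim1 (0.70). Peg3 was most like Caprin2 (0.81), Mapk8ip1 (0.79) and Meis1 (0.77), and Cdkn1c most like Nfib (0.81), Eid1 (0.80) and Mn1 (0.80). Nnat was most like Pomt1 (0.81), Ipo5 (0.79) and Arxes2 (0.77), Plagl1 most like Aff3 (0.76), Ube2o (0.72) and Gm16152 (0.71), and H19 most like Ripor3 (0.64), Dlg1 (0.61) and Ptx3 (0.60). Among pairs of members, the highest r were those of Mest and Grb10 (0.71), Cdkn1c and Ndn (0.69), Peg3 and Ndn (0.64), Cdkn1c and Grb10 (0.64), Grb10 and Ndn (0.63) and the neighbors Dlk1 and Meg3 (0.63). The lowest were those of Cdkn1c and Nnat (-0.44), Grb10 and Nnat (-0.41) and Meg3 and Grb10 (-0.39).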

How the data were processed

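The deposited files were UMI count matrices, 1 per library, made by the authors with Cell Ranger, with 31053 genes and no normalization. The submitters' processing notes name Cell Ranger 3.1.0, Seurat 4.1.0 and mm10, whereas the headers of the 5 and 6 wk matrices name 6.0.1. All deposited barcodes (48163 cells) were kept. Libraries held 9471, 9253, 11077, 7779 and 10583 cells, with median depths of 12424, 9056, 9581, 11406 and 11881 UMIs per cell at 2, 3, 4, 5 and 6 wk. Counts were log-normalized, and the 5 libraries were aligned by anchor-based integration in Seurat 5.3.0 (R 4.3.3) on 2000 variable genes. The aligned values were clustered with 30 principal components and resolution 1, first all cells and then granulosa-like and mesenchymal cells separately. Each library is 1 age, so the alignment can also reduce differences between ages in how cells were grouped, which was not tested. Levels were taken from the counts before alignment. The 10 genes were kept out of the markers and the variable genes, of which 9 would otherwise have been part. Scrublet (scanpy 1.11.5) marked 2.08 to 5.01% of a library as doublets, which stayed in except in an alternative. A cluster was named from at least 3 detected markers of its type. The 7683 cells (16.0%) of first-round clusters left unnamed, for low UMIs, doublets, too few markers or a single library, entered no cell group but count in the levels over all cells and in the shares of a gene's UMIs. Second-round clusters left unnamed (1421 and 387 granulosa-like cells, and 552, 289, 140 and 65 mesenchymal cells) entered only the class levels.

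UMIs were summed per cell group and library and scaled to CPM. With 1 library per age no test was made. The rule named all 10 genes, members of a list of other imprinted genes and the 3 genes most like each of the 10. Likeness was Pearson's r over sums of a group in a library with at least 50 cells, among genes with at least 500 UMIs in all. The ratio and interval code was tested on simulated data. Positions are those of GENCODE M21 (GRCm38), and start windows and microRNAs those of RefSeq (GRCm38.p6). The genes, lists and comparisons were chosen with earlier results of these data known. Alternatives changed the genes, resolution, cells, scaling, UMI minimum, fold, weighting of clusters and pair of ages.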

Additional observations from a re-analysis of the deposited data

Results flagged for a closer look

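Mest and Meg3 each differed in direction between cell groups under the same comparison of 6 with 2 wk. Mest had a ratio of 6.00 in mitotic mesenchymal-like cells and of 0.135 in primordial granulosa-like cells, the latter from 2 UMIs at 6 wk. Meg3 had a ratio of 2.43 in primordial granulosa-like cells and of 0.0192 in theca-like cells, the latter from 5 UMIs at 6 wk. With 1 library per age the difference between the groups was not tested. The steroidogenic cluster held 61 of 170 theca-like cells at 2 wk and 57 of 158 at 6 wk, and Meg3 was lower at 6 wk in both theca-like clusters, from 139 to 1.56 CPM in that cluster and from 39.4 to 1.46 CPM in the other.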

How the results depend on the processing

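Of 170 counts of genes past the fold under an alternative, 149 stayed within 1.5 times the reported count, and 21 moved. The share of all genes past the fold also changes with the setting and is not given beside the counts below. In early theca-like cells the share lower was 5.76% for 6 against 2 wk. It was 7.17% for 4 against 2 wk and 2.61% for 6 against 5 wk. Whether a moved count exceeds such a share was not tested. With 4 against 2 wk in place of 6 against 2 wk, the genes lower were 1 in early theca-like cells, 3 in stromal-like cells and 3 of the other imprinted genes. With 6 against 5 wk, chosen after seeing the data, they were 0, 3 and 1, with 1 in granulosa-like and 0 in smooth muscle-like cells, and those higher were 0 in early theca-like cells, 0 in stromal-like cells and 0 of the other imprinted genes. A 1.5-fold limit gave 5 lower in smooth muscle-like cells, 2 higher in antral-like cells and 2 higher in remodeling-like over antral-like cells. At least 100 UMIs left 3 of the other imprinted genes lower and 0 members higher in remodeling-like over antral-like cells, with fewer genes tested. Equal weight for each cluster gave 0 higher in stromal-like cells and 2 higher in remodeling-like over antral-like cells. Leaving out doublets gave 1 higher in granulosa-like cells, keeping the members among the variable genes gave 1 higher in antral-like cells, and the quality filter gave 0 higher in early theca-like over theca-like cells. Resolution 0.6 and a median gene ratio of 1 moved no count. The causes were not tested. Thinning cells to 5000 UMIs in place of 2000 changed the share of early theca-like cells with a UMI for 9 of the 10 genes (Mest from 9.54 to 19.2%).

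No paired analysis was possible because the labels give no replicate numbers and each age is a single library. Leaving out a library was not possible for the same reason. Counting depth limited the genes with few UMIs at 6 wk, and animals, captures and the Cell Ranger version could not be separated from age.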
